A study of Rattus norvegicus with 83 samples.

Results

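Rat offspring exposed to amitrole were compared with offspring exposed to methimazole, each compound at the lower of its doses, in libraries labelled pup day 16 (PD16). The comparison takes 21 of the 83 libraries of the series by their labels: 11 from the group given amitrole at 25 mg/kg (Ami25) and 10 from the group given methimazole at 8 mg/kg (MMI8). Sprague-Dawley dams (Crl:CD(SD)) received the compound once a day by gavage in corn oil at 2 mL/kg, beginning on gestational day 7. Dosing ran to PD22 in the treatment protocol and to PD16 in the series description, with birth expected on gestational day 23, which counts as PD1. Vehicle pups came from dams given corn oil, the upper doses were 50 mg/kg amitrole (Ami50) and 16 mg/kg methimazole (MMI16), and the same 5 treatments were also sampled at gestational day 21 (GD21). PD16 had 10 vehicle, 10 MMI16 and 12 Ami50 libraries, and GD21 had 6 libraries in each group. The labels name no genetic change in any group, the exposure was through the dam, and the doses in mg/kg are not matched between compounds. Litters are not given, so libraries may share a litter and the p values measure only the spread between libraries. RNA was counted by bulk RNA barcoding (BRB-seq), in which many RNA samples are tagged, pooled and sequenced together.

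Both compounds inhibit thyroid peroxidase, the enzyme with which the thyroid iodinates thyroglobulin to make thyroid hormone. Amitrole, an aminotriazole, also inhibits catalase, the peroxisomal enzyme that breaks down hydrogen peroxide, whereas methimazole is a thionamide used as an antithyroid drug. Thyroid hormone acts through nuclear receptors and drives many maturation steps around birth. The study's title sets effects mediated by thyroid hormone beside effects specific to a compound, and the direct comparison bears on the second of these.

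The labels name testis, but the libraries carried transcripts of the adrenal gland. The 6 listed adrenal cortex markers summed to 11480.2 to 50539 counts per 1000000 counts of a library (CPM) in the Ami25 libraries and 14796 to 23390.1 CPM in the MMI8 libraries. Of 20 listed testis markers, 19 were in the table, 7 of them had no count in any of the 21 libraries (Amh, Hsd17b3, Lhcgr, Sycp3, Sycp1, Dmrt1 and Prm1), and the list reached 441 counts in all, most of them from Clu, which many tissues express (240 counts in Ami25 and 67 in MMI8). Total counts ran from 263933 to 826619 per library in Ami25 (median 551457) and from 300725 to 567756 in MMI8 (median 391745.5), so a level of a few CPM rests on single counts. One Ami25 library, replicate 33, had albumin (Alb) at 1954 CPM and liver markers summing to 9978 CPM, and another, replicate 79, had the lowest total and the lowest cortex sum. Library numbers in the titles form a series from 1 to 20, one from 21 to 40 and one from 41 up, whose meaning is not given. Ami25 had 4, 4 and 3 libraries in them and MMI8 had 2, 4 and 4.

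The globins separated the 2 groups completely. Embryonic globins are made by early red cells and replaced by adult globins in late gestation. Those listed (Hbe1, Hbe2, Hbz and Hbg1) took 0.180 ± 0.0696% of all globin counts in Ami25 (SD, n = 11, range 0.0995 to 0.325%). In MMI8 they took 17.1 ± 2.82% (n = 10, range 13.5 to 23.0%). A 2-sided permutation test of the difference gave p = 0.00002 from 100000 resamples. The share was 14.8% on average in the PD16 vehicle libraries and 0.161% in the GD21 vehicle libraries. The vehicle values go against the stage labels, since the embryonic share was high in the libraries labelled with the later stage and low in those labelled with the earlier one. Whether stage labels were exchanged, for all libraries or for some groups, was not tested, and PD16 and GD21 stand for the labels throughout. MMI8 was near the vehicle of its own label and Ami25 near the vehicle of the other label. On log2 CPM with 2 added, over the genes tested, the nearer vehicle mean by Pearson's r was that of GD21 for all 11 Ami25 libraries and that of PD16 for all 10 MMI8 libraries. Whether the labelled stage, the compound or both separate the groups cannot be told apart from these files, and this holds for every result below.

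**Figure D1:**
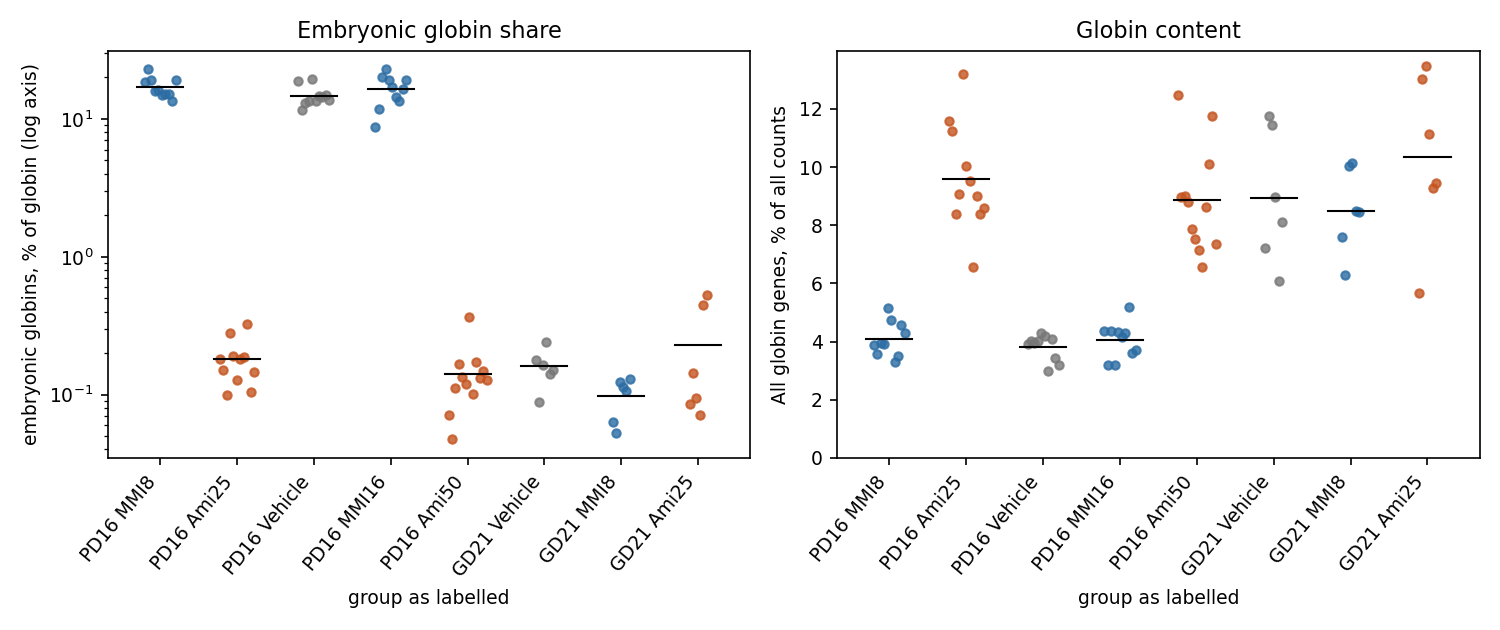
Embryonic globins as a percent of globin counts (left, log axis) and globin as a percent of all counts (right), one point per library and a bar at the mean of each group as labelled. The 11 PD16 Ami25 libraries lie between 0.0995 and 0.325% in the left panel, below all 10 PD16 MMI8 libraries, and between 6.58 and 13.2% in the right panel, above all of them.

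Of 4906 genes tested over the PD16 libraries, 1189 (24.2%) were higher and 1180 (24.1%) lower in Ami25 than in MMI8 at an adjusted p under 0.05. Here and below the test is edgeR's quasi-likelihood F test with Benjamini-Hochberg adjustment over all genes tested, a log2 difference is Ami25 minus MMI8 in that fit, and a called gene is one that passed. The difference was 2-fold or more for 423 of the higher and 258 of the lower genes, and the median over all genes tested was 0.02. Every Ami25 library lay above every MMI8 library for 206 genes (4.2%) and below every one for 310 (6.32%). Within the library numbers 1 to 20, 21 to 40 and 41 up, fitted apart, 653, 1352 and 1331 genes were called. Gene lists are described below by their called members, to be read against those shares of all genes. The count filter takes all PD16 groups, so a gene low in Ami25 or in MMI8 can be tested through its level elsewhere. Its log2 difference then rests on few counts in the low group. Reads of near-identical genes (globins, alpha defensins, glutathione transferases, Akr1c and Hsd3b genes, ribosomal protein pseudogenes) may have been split between copies, and overlapping or antisense genes cannot be separated, since the strand setting of the counting is not given in the sources used here.

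**Figure D2:**
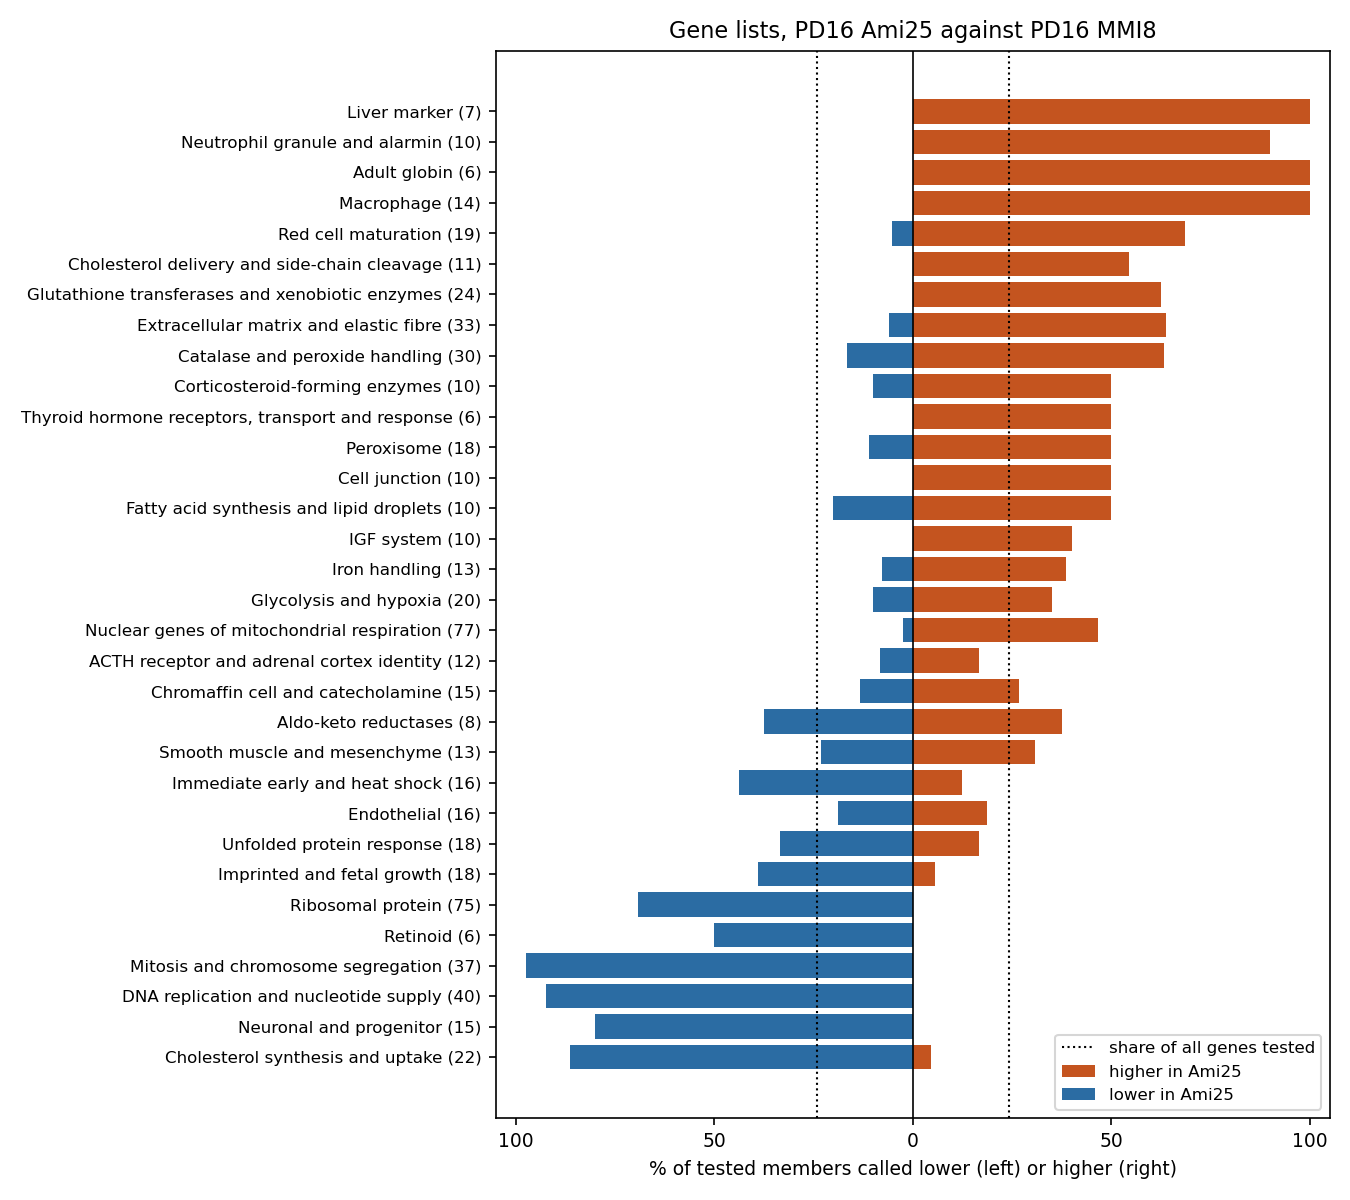
Share of the tested members of each gene list called higher (right) or lower (left) in PD16 Ami25 than in PD16 MMI8, in percent, with the number tested in parentheses. Dotted lines mark the shares over all 4906 genes tested, 24.2% higher and 24.1% lower.

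Transcripts for cholesterol entry into steroid synthesis stood higher in Ami25. Of 11 tested members of the list for cholesterol delivery and side-chain cleavage, 6 were higher and none lower (median log2 difference 0.83). Tspo, a protein of the outer mitochondrial membrane used in cholesterol transport, ran from 834 to 1667 CPM (median 1375) in Ami25 and from 312 to 483 CPM (median 433) in MMI8. The groups did not overlap (log2 difference 1.76, SE 0.10, adjusted p = 1.38e-21), and PD16 vehicle averaged 386 CPM. Cyp11a1, the side-chain cleavage enzyme that makes pregnenolone, ran from 9317 to 23822 CPM (median 20317) in Ami25 and from 6814 to 11379 CPM (median 8628) in MMI8. Only Ami25 replicate 79 fell inside the MMI8 range (log2 difference 1.20, SE 0.16, adjusted p = 2.51e-09). Within the 3 number series the Cyp11a1 difference was 1.62, 1.16 and 0.83, with an adjusted p under the threshold in each. Star, which carries cholesterol to the inner mitochondrial membrane, ran from 280.4 to 1298 CPM (median 903) against 256 to 773 CPM (median 543), with overlapping ranges (log2 difference 0.83, SE 0.18, adjusted p = 0.000115); its difference was 1.28 in the first series, where it passed, and 0.58 and 0.68 in the others, where it did not. Fdxr, the reductase that feeds electrons to mitochondrial P450 enzymes (1.24), Lipa, the lysosomal lipase that frees cholesterol from its esters (1.35), and Apoe (1.07) were higher too, while Scarb1 (0.60) and Fdx1 (0.41) did not pass.

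Among 10 tested corticosteroid-forming enzymes, 5 were higher, 1 was lower and 4 did not pass (median 0.55). Cyp21a1, the 21-hydroxylase of cortisol, corticosterone and aldosterone synthesis, ran from 1148 to 12587 CPM (median 10894) in Ami25 and from 3331 to 4565 CPM (median 3574) in MMI8 (log2 difference 1.38, SE 0.21, adjusted p = 4.1e-07). In Ami25 9 of 11 libraries lay above every MMI8 library, and 1, replicate 79, lay below all of them. Within the 3 number series the difference was 1.96, 1.36 and 0.20, and it did not pass in the last of these (adjusted p = 0.769), where the list had 2 higher and 1 lower of 11 (median 0.15). Cyb5a (1.01), H6pd (1.03), Hsd3b1 (0.40) and Hsd3b3 (0.50) were higher, and Hsd17b12, a ketoreductase of very long fatty acids, was lower (-0.67). Cyp11b1, the 11-beta-hydroxylase, averaged 8164 ± 3774 CPM in Ami25 and 5807 ± 1300.0 CPM in MMI8 and missed the threshold (log2 difference 0.60, SE 0.27, adjusted p = 0.0607); it passed without Ami25 replicate 36, 78 or 79, with DESeq2 and with the number series as a term, and the sign turned within library numbers 41 up, where it was -0.43 (adjusted p = 0.63). Cyp11b2, aldosterone synthase of the outer cortex, ran from 26.5 to 3651 CPM (median 178) against 47.9 to 1912 CPM (median 86.7) (log2 difference 1.40, SE 0.92, adjusted p = 0.206). Its MMI8 mean rests on replicate 28, at 1912 CPM, without which the difference was 3.11 with an adjusted p of 0.0084. The 12 tested members of the list for the ACTH receptor and cortex identity gave 2 higher (Prkar1a, 0.47, and Cited2, 0.81) and 1 lower (Inha, the inhibin alpha subunit, -1.50). Cited2 missed the threshold without MMI8 replicate 8, 28 or 65 or Ami25 replicate 78 or 79 (adjusted p from 0.0524 to 0.0726). The ACTH receptor Mc2r was below the count filter at 18.9 and 9.04 CPM, and Nr5a1, the steroidogenic transcription factor, had 2 counts in each group. In such bulk tissue, fewer cells of a type and less RNA per cell cannot be told apart. The cortex sum given above is made of Cyp21a1, Cyp11b1, Cyp11a1, Star, Mc2r and Nr5a1, so it is not a separate measure of the share of cortex.

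Transcripts of cholesterol synthesis went the other way. Of 22 tested genes of synthesis and uptake, 19 were lower and 1 higher in Ami25, the median log2 difference was -1.51, and 15 of the lower genes had no overlap between groups. Fdps, which makes farnesyl diphosphate, ran from 170.5 to 535 CPM (median 334) in Ami25 and from 1571 to 2331 CPM (median 1855) in MMI8. Every Ami25 library was below every MMI8 library (log2 difference -2.27, SE 0.26, adjusted p = 4.2e-10), and the difference was -1.74, -2.36 and -3.01 within the 3 number series. Hmgcs1, HMG-CoA synthase, ran from 20.6 to 95.5 CPM (median 61.7) against 184 to 379 CPM (median 279), again apart (log2 difference -2.09, SE 0.26, adjusted p = 4.25e-09).

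The steps after mevalonate moved with them: Mvd (-2.35), Idi1 (-2.22), Sqle (-1.63), Lss (-1.76), Cyp51 (-1.80), Msmo1 (-1.96), Nsdhl (-1.91) and Sc5d (-1.23) were all called lower. So was Insig1 (-1.52), which holds the sterol sensor in the endoplasmic reticulum, and Srebf2 (-1.10), the transcription factor of the pathway, although Srebf2 libraries overlapped. Tmem97, a sterol-related membrane protein outside the list, ran from 73.6 to 139 CPM (median 104) against 382 to 599.7 CPM (median 480.2) and did not overlap (log2 difference -2.12, SE 0.14, adjusted p = 8.69e-19). Scap, the escort of SREBP proteins, was the 1 higher member (0.91), and Hsd17b7 (-0.72) and Dhcr7 (0.19) did not pass. Mean levels of Fdps and Hmgcs1 in PD16 vehicle lay between those of the 2 compounds. Fdps averaged 1225 CPM in PD16 vehicle, where libraries spread from 374 to 2183 CPM, and 369.7 CPM in GD21 vehicle. Hmgcs1 averaged 224 and 78.2 CPM in these groups. In the neighbouring list for fatty acids and lipid droplets, Elovl6 (-1.55) and Acly (-0.75) were lower, and Me1 (1.32), Acsl1 (0.95), Plin2 (0.94), Fads2 (0.80) and Acsl4 (0.68) were higher, of 10 tested.

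The promoters of the lower cholesterol genes were searched because these genes moved together. RefSeq promoters of the GRCr8 rat assembly, 250 bases before to 50 after the start, were matched by symbol for 4052 of the tested genes and for 15 of the 19 lower members. The sequence CCAAT, on either strand and with overlaps allowed, was in 13 of those 15 (86.7%), in 40.4% of the promoters of genes tested and in 37.5% of all 33469 promoters. The letters were also in 25 of 32 matched promoters of the lower mitosis genes (78.1%), 17 of 31 of the lower replication genes (54.8%) and 6 of 9 of the higher macrophage genes (66.7%), so they are not particular to the cholesterol genes. A sterol element written TCACNCCAC was in none of the 15, against 0.938% of the tested genes' promoters, which says only that these letters are not in this window. The windows below, each wholly before its start and printed 5′ to 3′ on the gene's strand with the CCAAT letters or their complement ATTGG in capitals, show where the letters lie in 4 of these genes; the pairing of this list with this motif was chosen after the shares were seen. They are Fdps at chr2:176804877-176804921 on the minus strand, Hmgcs1 at chr2:53382151-53382195 on the plus strand, Idi1 at chr17:66547566-66547610 on the minus strand and Lss at chr20:12118288-12118332 on the minus strand.
Fdps: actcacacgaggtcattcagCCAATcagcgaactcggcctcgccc
Hmgcs1: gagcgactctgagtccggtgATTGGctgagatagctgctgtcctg
Idi1: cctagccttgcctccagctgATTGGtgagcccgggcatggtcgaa
Lss: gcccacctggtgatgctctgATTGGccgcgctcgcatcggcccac

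Genes of DNA replication were lower in Ami25. Of 40 tested members, 37 were lower and none higher, with a median of -0.93 and 18 without overlap. Mcm4, a subunit of the replicative helicase, ran from 39.9 to 77.0 CPM (median 50.8) in Ami25 and from 116 to 223 CPM (median 145) in MMI8. All Ami25 libraries were below all MMI8 libraries (log2 difference -1.42, SE 0.14, adjusted p = 4.09e-13), with -1.50, -1.31 and -1.46 in the 3 number series. Rrm2, the small subunit of ribonucleotide reductase, averaged 337 ± 98.2 CPM against 1169 ± 229.6 CPM (log2 difference -1.70, SE 0.22, adjusted p = 6.05e-09). The single-strand binding subunit Rpa2 (-1.62), the origin recognition subunit Orc6 (-1.49) and the GINS subunit Gins1 (-1.44) were among the widest gaps, and Tyms (0.20), Pola2 (0.01) and Dtymk (-0.23) did not pass.

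Mitosis genes gave 36 lower and none higher of 37 tested (median -0.90, 17 without overlap). Cdc20, which activates the anaphase-promoting complex, ran from 71.9 to 148 CPM (median 104) against 206 to 302 CPM (median 232) and did not overlap (log2 difference -1.12, SE 0.10, adjusted p = 9.42e-14). The mitotic kinase Plk1 (-1.49), the checkpoint kinase Bub1 (-1.34), cyclin A2 (Ccna2, -1.32) and cyclin B1 (Ccnb1, -1.12) were lower by larger amounts than the proliferation marker Mki67 (-0.67, adjusted p = 0.00426). Only Top2a did not pass (-0.52). Vehicle levels differed from gene to gene: Mcm4 averaged 455 CPM and Rrm2 2860.3 CPM in PD16 vehicle, above both compounds, whereas Cdc20 averaged 229 CPM, near MMI8.

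Promoters of these 2 lists differed in the letters they held. The cell cycle homology letters TTTGAA, on either strand, were in 24 of 32 matched promoters of the lower mitosis genes (75.0%), in 3 of 31 of the lower replication genes and in 11.7% of the tested genes' promoters. The E2F letters TTTNNCGC, on either strand, were in 15 of the 31 replication promoters (48.4%), in 5 of the 32 mitosis promoters and in 10.1% of those of genes tested. Over all promoters the shares were 18.3% and 4.92%. The first 3 windows below show TTTGAA in mitosis genes, and the last 2 show the E2F letters in replication genes, in capitals and wholly before the start: Cdk1 at chr20:19265201-19265246 on the plus strand, Cdc20 at chr5:137255825-137255870 on the minus strand, Tacc3 at chr14:81289715-81289760 on the minus strand, Mcm6 at chr13:42404464-42404511 on the minus strand and Mcm7 at chr12:22163203-22163250 on the minus strand (GRCr8).
Cdk1: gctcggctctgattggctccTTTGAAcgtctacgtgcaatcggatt
Cdc20: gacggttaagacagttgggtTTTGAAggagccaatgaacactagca
Tacc3: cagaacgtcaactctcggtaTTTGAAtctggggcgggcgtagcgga
Mcm6: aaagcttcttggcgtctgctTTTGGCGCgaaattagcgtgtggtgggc
Mcm7: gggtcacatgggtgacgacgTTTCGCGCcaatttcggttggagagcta
A match describes the promoter's letters and shows no binding in these samples.

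**Figure D3:**
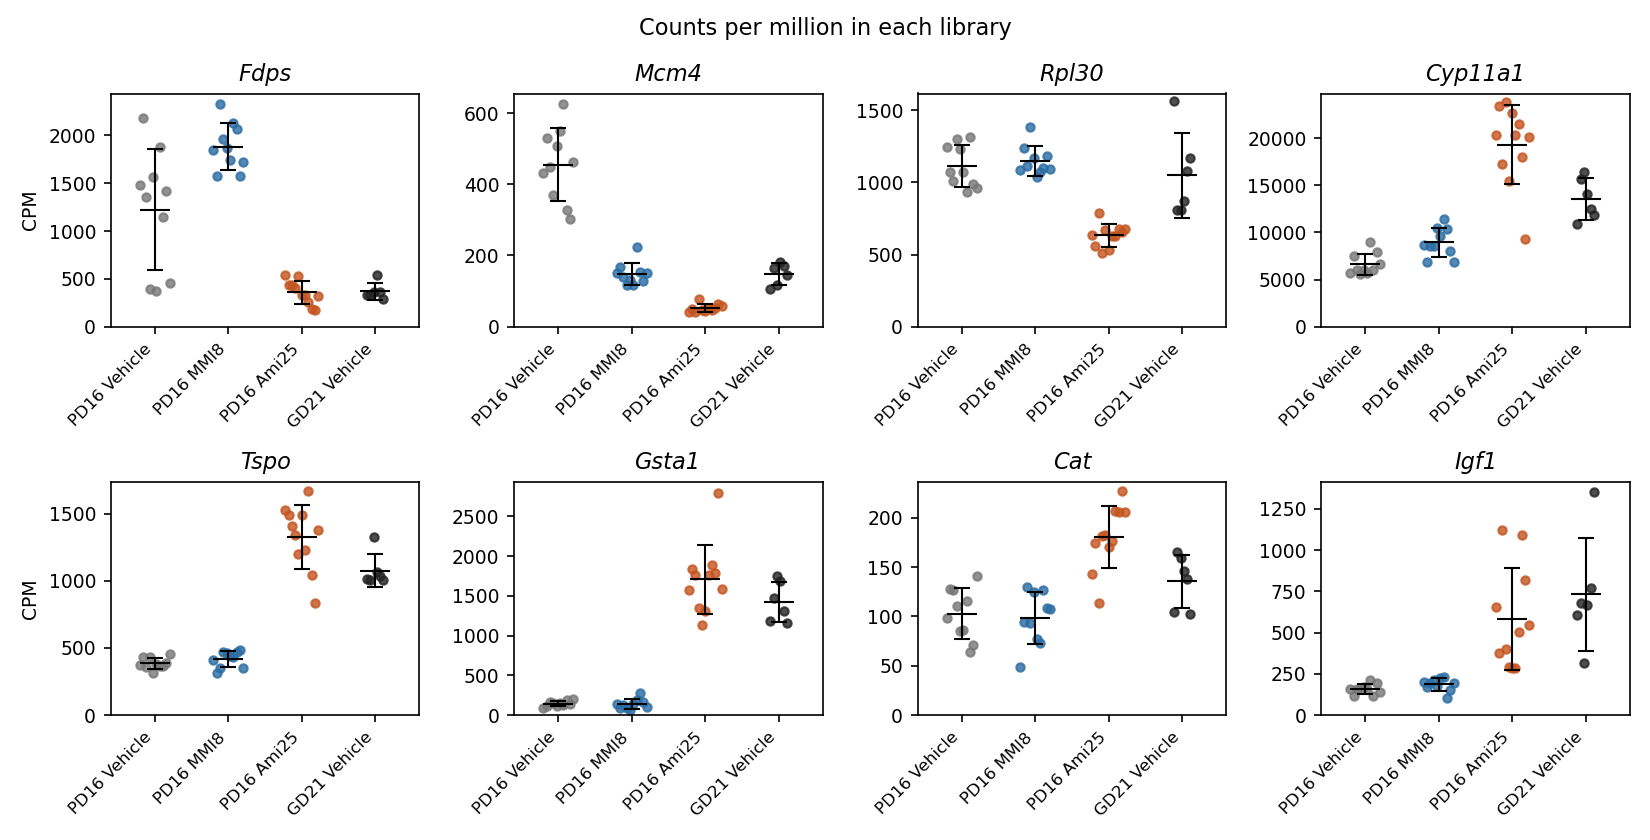
CPM in every library of 4 groups for genes named in the text, one panel per gene with its own axis from 0, a bar at the group mean and error bars of 1 SD. Fdps lies between 170.5 and 535 CPM in PD16 Ami25 and between 1571 and 2331 CPM in PD16 MMI8.

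Ribosomal protein genes were mostly lower in Ami25, by a small amount. Of 75 tested, 52 were lower and none higher, the median was -0.41, and 34 had no overlap between groups. Rpl30 ran from 511 to 788 CPM (median 635) against 1036 to 1386 CPM (median 1107), wholly apart (log2 difference -0.77, SE 0.17, adjusted p = 0.000188). Rps10 (-0.79), Rps7 (-0.66) and Rps13 (-0.65) had gaps of the same size, and Rpl38 (0.02) was the only member above 0. The list was unlike the cell cycle and cholesterol lists in its vehicle values: between GD21 and PD16 vehicle only 1 of 75 was higher and 9 lower, with a median of 0.02. Against PD16 vehicle, which both compounds share, the median was -0.45 for Ami25 and -0.03 for MMI8. In the library numbers 1 to 20 none of the 75 passed, with a median of -0.40, and 44 and 27 passed in the other series.

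Respiratory chain genes leaned slightly upward. Of 77 nuclear genes of mitochondrial respiration, 36 were higher and 2 lower (median 0.18). Sdha, a subunit of succinate dehydrogenase, averaged 717 ± 92.8 CPM against 339 ± 47.3 CPM (log2 difference 1.16, SE 0.10, adjusted p = 2.38e-15), and Ndufa7 (0.80) of complex I was higher without overlap. Cytochrome c (Cycs) went the other way at 445 ± 82.7 CPM against 956 ± 70.2 CPM, also without overlap (-1.01). Of 20 glycolysis and hypoxia genes 7 were higher and 2 lower, led by Ndrg1 (1.27) and Bnip3 (1.22), with the glucose transporter Slc2a1 lower (-0.70).

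Red cell transcripts changed in kind and in amount. Hbe1 ran from 65.3 to 267 CPM (median 146) in Ami25 and from 4157 to 7361 CPM (median 6099) in MMI8, the widest fitted gap but one of all genes tested (log2 difference -5.20, SE 0.24, adjusted p = 1.42e-24). Hbz (-5.97) had the widest, and Hbg1 (-3.12) was lower too. All 6 adult globins were higher (median 1.56), with Hbb at 6572 to 13918 CPM (median 9582) against 1766 to 3243 CPM (median 2501) (log2 difference 2.09, SE 0.19, adjusted p = 1.5e-13). Globins took 9.60 ± 1.83% of all counts in Ami25 (SD, n = 11) and 4.09 ± 0.597% in MMI8 (n = 10), without overlap (2-sided permutation test, p = 0.00002). Of 19 red cell maturation genes 13 were higher and 1 lower (median 0.93): Alas2, the erythroid enzyme that starts haem synthesis, averaged 376 ± 80.7 CPM against 116 ± 29.2 CPM (log2 difference 1.77, SE 0.15, adjusted p = 3.35e-15), and the anion exchanger Slc4a1 (1.47) and the globin chaperone Ahsp (1.38) moved alike, while Lmo2, a factor of early blood cells, was lower (-1.10).

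Fetal growth genes were mixed. Of 18 tested imprinted and fetal growth genes 7 were lower and 1 higher (median -0.40), including the growth factor midkine (Mdk, -1.67), Nnat (-1.08) and Plagl1 (89.4 ± 24.2 CPM against 186 ± 57.8 CPM). Igf2, the fetal growth factor, ran from 55.5 to 156 CPM (median 95.4) against 76.2 to 297 CPM (median 132) and did not pass (log2 difference -0.47, SE 0.25, adjusted p = 0.113), though it did without Ami25 replicate 33 (-0.59, adjusted p = 0.0461). Its imprinted neighbour H19 did not pass either (0.23, adjusted p = 0.49). Igf1, the growth factor that growth hormone induces after birth, ran from 284 to 1123 CPM (median 506) against 104 to 229 CPM (median 195) without overlap (log2 difference 1.73, SE 0.29, adjusted p = 2.89e-06), and passed only in the third number series when the series were fitted apart (1.96, 0.81 and 2.28). The binding proteins Igfbp6 (2.91), Igfbp7 (1.07) and Igfbp2 (0.96) were higher, giving 4 of 10 tested members of the IGF list and none lower.

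Neuronal and progenitor genes were lower. Of 15 tested 12 were lower and none higher (median -0.96). Fscn1, an actin-bundling protein, averaged 37.6 ± 11.0 CPM against 152 ± 57.1 CPM (log2 difference -1.93, SE 0.20, adjusted p = 1.15e-11), and the neurofilament gene Nefm (-2.06), Cd24 (-1.44), Gap43 (-1.02) and the tubulin regulator Stmn2 (-0.96) were lower. Sox9, a progenitor transcription factor, ran from 1.71 to 18.9 CPM (median 10.9) against 10.9 to 45.7 CPM (median 24.2) (log2 difference -1.49, SE 0.32, adjusted p = 9.94e-05). Jag1, a Notch ligand, averaged 21.3 ± 10.4 CPM against 51.4 ± 23.1 CPM (-1.26), and both genes were far above either compound in PD16 vehicle, at 139 and 224 CPM. Calb2 (-2.65, adjusted p = 0.0254) ran from 1.81 to 61.7 CPM (median 6.16) against 2.43 to 339 CPM (median 5.07): its MMI8 mean is carried by a few libraries, and within numbers 21 to 40 its sign reversed (1.56).

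Chromaffin cells of the medulla make catecholamines, and their markers did not move as one. Of 15 tested, 4 were higher and 2 lower. Pnmt, which turns noradrenaline into adrenaline, ran from 431 to 827 CPM (median 695) against 59.3 to 359 CPM (median 273) without overlap (log2 difference 1.48, SE 0.18, adjusted p = 2.06e-09) and passed in all 3 number series. Th, tyrosine hydroxylase, averaged 162 ± 90.4 CPM against 127 ± 30.0 CPM (log2 difference 0.45, SE 0.19, adjusted p = 0.0412). Its adjusted p was 0.264 without Ami25 replicate 78, 0.0988 with no filter and 0.113 with the 2 groups fitted alone. Th also missed the threshold when any of several other single libraries of either group was left out. Chga (0.95) passed by little, with an adjusted p of 0.0851 without Ami25 replicate 15, and Ddc was 0.51. Gal, the neuropeptide galanin, was lower without overlap (-1.89), and Gata2 was lower (-1.60). Dbh (-0.43) and Chgb (-0.29) did not pass. The medulla sum was 949.7 to 2156 CPM in Ami25 and 731 to 1134 CPM in MMI8, but it is made of Th, Dbh, Pnmt, Chga, Chgb and Slc18a1. Without Pnmt it was 281 to 1329 CPM (mean 569) in Ami25 and 446 to 828 CPM (mean 643) in MMI8, so Pnmt made the sum higher in Ami25.

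Extracellular matrix genes gave 21 higher and 2 lower of 33 tested (median 0.68). Dpt, the matrix protein dermatopontin, had the largest fitted rise of all genes tested. It ran from 20.6 to 92.5 CPM (median 50.2) in Ami25 and from 0 to 5.75 CPM (median 2.04) in MMI8, without overlap (log2 difference 4.56, SE 0.44, adjusted p = 6.36e-13). Dpt passed the count filter only by its level in groups other than MMI8, and the size of its rise rests on few MMI8 counts. The elastic fibre genes Mfap5, at 71.0 to 169.9 CPM (median 108) against 3.52 to 18.9 CPM (median 11.4) (log2 difference 3.29, SE 0.26, adjusted p = 2.45e-16), and elastin (Eln, 50.5 ± 25.9 CPM against 7.17 ± 3.45 CPM, 2.81) were also apart. Fibrillar and associated collagens differed by less: Col3a1 (1.06), Col5a2 (1.04), Col6a2 (1.04) and Col1a1 (0.70) passed, Col1a1 with an adjusted p of 0.0125 and of 0.0615 without Ami25 replicates 33 and 79, and Col1a2 (0.44) did not. Timp1 (-0.34) and Sparcl1 (-0.63) were the lower members. Within numbers 1 to 20 only 2 of 39 members passed, against 20 of 34 and 13 of 35 in the other series. The 5 listed smooth muscle markers summed to 59.3 to 130.2 CPM in Ami25 and 21.8 to 59.9 CPM in MMI8. Tagln was higher (2.10) and Acta2 was near 0 in both. The longer list for smooth muscle and mesenchyme gave 4 higher and 3 lower of 13 tested (median 0.01), and its summed levels overlapped between groups. The part of smooth muscle cells in the matrix difference was not tested.

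Catalase, which amitrole inhibits as an enzyme, was higher as a transcript. Cat ran from 114 to 227 CPM (median 182) in Ami25 and from 48.5 to 129.6 CPM (median 101) in MMI8, with a narrow overlap (log2 difference 0.93, SE 0.13, adjusted p = 8.19e-09), and passed in all 3 number series (1.20, 0.86 and 1.02). PD16 vehicle averaged 103 CPM, GD21 vehicle 136 CPM. Of 30 tested genes for catalase and peroxide handling 19 were higher and 5 lower (median 0.62). The glutathione peroxidase Gpx1 did not overlap (533 ± 88.2 CPM against 324 ± 37.5 CPM, 0.82); the mitochondrial enzymes Sod2 (1.00), Prdx3 (0.98) and Txnrd2 (1.16), the extracellular dismutase Sod3 (1.97), haem oxygenase Hmox1 (1.30), Nqo1 (0.93) and Gclc (0.96) were higher, and Gpx7 (-0.86), Gpx8 (-0.72), Prdx4 (-0.36), Prdx1 (-0.31) and Txn1 (-0.32) were lower. Txnip, the thioredoxin-binding protein, had the largest gap of the list (182 ± 197 CPM against 38.6 ± 15.4 CPM, 2.23) and no overlap, with 1 Ami25 library at 754 CPM.

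Other peroxisomal genes gave 9 higher and 2 lower of 18 (median 0.51). Scp2, a sterol carrier and thiolase (1.03), Phyh, phytanoyl-CoA hydroxylase (1.03), and Acaa1a, a thiolase of beta-oxidation (1.31), were higher, and the transporter Abcd3 (-1.07) was among the lower. Glutathione transferases and xenobiotic enzymes gave 15 higher and none lower of 24 (median 0.76, 8 apart). Gsta1, an alpha-class glutathione transferase, ran from 1133 to 2796 CPM (median 1757) against 70.7 to 279 CPM (median 136). The lowest Ami25 library was far above the highest MMI8 library (log2 difference 3.68, SE 0.17, adjusted p = 8e-25), and GD21 vehicle averaged 1427 CPM against 145 CPM in PD16 vehicle. The epoxide hydrolase Ephx1 (1.95), the oxidase Aox1 (1.88) and the monooxygenase Fmo1 (1.75) were higher, and Gstp1 (0.25) and Gsto1 (0.20) did not pass.

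Aldo-keto reductases split. Akr1c3 ran from 0 to 32.5 CPM (median 7.26) against 54.4 to 438 CPM (median 122) (log2 difference -3.73, SE 0.55, adjusted p = 1.38e-07) and Akr1c14 was lower as well (-2.02), whereas Akr1b7, an abundant reductase of the adrenal cortex, averaged 9423 ± 2562 CPM against 5656 ± 1807 CPM and was higher (0.84); 3 of 8 tested were higher and 3 lower. Among retinoid genes the binding proteins Crabp1 (4.43 ± 3.11 CPM against 56.4 ± 26.4 CPM, -3.57), Crabp2 (-1.45) and Rbp4 (-1.43) were lower, and the other 3 tested did not pass. Iron genes gave 5 higher and 1 lower of 13, with the ferritin heavy chain Fth1 at 6377 to 13733 CPM (median 10186) against 4040.2 to 5463 CPM (median 4800.4), without overlap (log2 difference 1.19, SE 0.12, adjusted p = 2.55e-12).

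Genes of thyroid hormone signalling were mostly too low to test. Of 30 listed, 6 were tested and 3 were higher: Me1, malic enzyme (1.32), Ucp2 (0.92) and the corepressor Ncor1 (0.64). The receptors averaged 7.06 (Ami25) and 10.1 CPM (MMI8) for Thra and 1.27 and 2.06 CPM for Thrb. Klf9, a transcription factor that thyroid hormone and glucocorticoid induce, ran from 5.16 to 17.1 CPM (median 10.9) against 0 to 8.56 CPM (median 2.06); it was under the filter and no test was made. PD16 vehicle averaged 3.71 CPM of Klf9 and GD21 vehicle 11.8 CPM.

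Blood and immune genes were higher in Ami25. Of 39 listed macrophage genes, 14 passed the count filter and all 14 were higher (median 1.25). Among them were the complement genes C1qa (2.77) and C1qc (1.72), lysozyme Lyz2 (83.3 ± 25.8 CPM against 22.8 ± 11.0 CPM, 1.90) and the colony-stimulating factor receptor Csf1r (1.01). C1qa averaged 3.59 CPM and C1qc 9.21 CPM in MMI8. The filter takes all PD16 groups, so a gene low in MMI8 can pass by its level elsewhere. The share therefore does not cover the listed genes left out. Outside the fits within a number series, 10 to 19 macrophage genes were called higher over the settings tried, and none lower. Cd163, a receptor for haemoglobin on tissue macrophages, was under the filter at 16.3 against 0.794 CPM. Of 10 neutrophil granule and alarmin genes 9 were higher (median 3.27). S100a9 ran from 31.1 to 249 CPM (median 73.6) against 0 to 18.9 CPM (median 8.32), without overlap (log2 difference 3.79, SE 0.50, adjusted p = 1.09e-08), S100a8 (3.62), Camp (3.73) and the alpha defensin RatNP-3b (3.96) overlapped in 1 or 2 Ami25 libraries, and Il33 did not pass (0.51). With the 2 groups fitted alone, 5 of these 10 genes were tested and 4 passed. Summed markers were 70.8 to 517 against 11.3 to 83.5 CPM for neutrophils and 92.9 to 265 against 35.4 to 104 CPM for macrophages, with 7 of 7 macrophage markers and 7 of 8 neutrophil markers higher in the Ami25 mean and the eighth at 0. No lymphocyte gene passed the count filter: of 21 listed genes 16 were in the table and gave 191 counts, 4 of them (Cd3e, Cd3g, Cd8b and Cd2) had none, and the sum was 15.2 to 46.2 against 2.43 to 22.5 CPM. With no filter 14 were tested and 1 was called higher.

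Vessel genes differed little as a list. Of 16 endothelial genes 3 were higher and 3 lower. Lyve1 of lymphatic and sinusoidal endothelium (1.45) and Gpihbp1, which anchors lipoprotein lipase in capillaries (1.48), were higher; the apelin receptor Aplnr (-1.05), Plvap (-0.88) and Emcn (-0.63) were lower; and the receptor Kdr did not pass (-0.22, adjusted p = 0.13). Without Ami25 replicate 79, 6 were lower. Ccl21, a chemokine of lymphatic vessels outside the list, ran from 36.3 to 236 CPM (median 72.0) against 0 to 16.6 CPM (median 9.19) (log2 difference 3.72, SE 0.46, adjusted p = 2.96e-09). Of 10 junction genes 5 were higher, with F11r apart (1.57), and Gja1, connexin 43, at 353 ± 66.8 CPM against 263 ± 72.0 CPM (0.53).

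Liver genes were higher in name but rest mainly on 1 library. All 7 tested liver markers passed (median 3.32), yet without Ami25 replicate 33 only 1 did, and 3 did with DESeq2. Alb ran from 8.88 to 1954 CPM (median 20.6) in Ami25 and from 2.82 to 21.5 CPM (median 14.4) in MMI8, and its difference of 4.14 (adjusted p = 0.0062) became 0.86 (adjusted p = 0.613) without that library. Afp and Apoa1 likewise fell under the threshold (adjusted p = 0.801 and 0.769). Transferrin (Tf), which other tissues make as well, was apart between groups, at 86.4 to 2305 CPM (median 157) against 15.9 to 53.6 CPM (median 35.3). Acta1 of skeletal muscle (3.43) rests on Ami25 replicate 80 (0.45 without it). Summed liver markers were at least 195 CPM in every Ami25 library and at most 186 CPM in MMI8, and adipose markers ran from 72.5 to 146 against 14.1 to 47.9 CPM, the latter without a count for Ucp1 and with 1 for Adipoq, and with most of the sum from Cidea (2.92), Fabp4 (1.15) and Cfd. Eif2s3y, a Y-linked gene, was present in all 21 libraries and did not differ beyond its spread (-0.12, adjusted p = 0.823).

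Stress genes were mixed. Of 16 immediate early and heat shock genes 7 were lower and 2 higher, with a median of -0.08 against 0.02 over all genes tested. The chaperone Hsp90aa1 was lower without overlap (414 ± 47.0 CPM against 851 ± 136 CPM, -0.94). Hsph1 (-1.46) and the cold-shock gene Rbm3 (-0.77) were lower, and Jun (0.79) and Hspb1 (1.33) were higher. Unfolded protein response genes gave 6 lower and 3 higher of 18 (median -0.25), to be read beside 24.1% lower and 24.2% higher over all genes. The endoplasmic reticulum proteins Creld2 (-1.08) and Pdia4 (-0.91) were lower and Herpud1 (0.78) was higher. Ddit3 (1.51) had an adjusted p of 0.134 without Ami25 replicate 36.

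A further set of genes stood far from PD16 vehicle under both compounds and did not pass between them. Cirbp, a cold-inducible RNA-binding protein, averaged 84.2 ± 67.1 CPM in Ami25, 80.8 ± 24.3 CPM in MMI8 and 617 ± 223 CPM in PD16 vehicle. Vtcn1, an immune checkpoint protein, ran from 0 to 6.66 CPM (median 3.42) in Ami25 and from 0 to 9.58 CPM (median 5.52) in MMI8, with a vehicle mean of 57.6 CPM, and Kdr 91.7, 113 and 286 CPM. Without MMI8 replicate 25, Kdr was called lower in Ami25 (-0.31, adjusted p = 0.0312). With all libraries none of the 3 passed between the compounds, which does not show that the compounds act alike on them.

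The difference between the compounds was set beside that at the upper doses, which shares no library with it. Between Ami50 and MMI16, 1096 genes (22.3%) were higher and 1215 (24.8%) lower. Genes higher in both comparisons numbered 903, which is 75.9% of those higher at the lower doses and 82.4% at the upper, and 880 were lower in both (74.6% and 72.4%). Calls were opposite for 2 genes, and Pearson's r over the 4906 genes was 0.88, given as a description because genes share libraries and depth. Some list counts were near each other: 18 cholesterol synthesis genes, 37 replication, 34 mitosis and 52 ribosomal protein genes were lower at the upper doses, and 7 of cholesterol delivery were higher. Other lists differed more. Matrix genes gave 13 higher and 4 lower there, against 21 and 2. The IGF list gave 4 higher and 4 lower (median -0.24), against 4 and 0 (median 0.35). Junction genes gave 3 and 2 against 5 and 0, and glutathione transferases and xenobiotic enzymes 14 and 3 against 15 and 0. Imprinted and fetal growth genes had 12 lower against 7, and respiration genes 50 higher against 36. Fdps was -1.69 at the upper doses, Tspo 1.82, Gsta1 3.48, Star 1.56 and Cat 0.77. The upper doses also differed in the Y-linked gene Eif2s3y. It was at most 3.65 CPM in Ami50 replicates 37 to 40 and 83 to 86 and at least 73.4 CPM in replicates 17 to 20. In MMI16 it ran from 68.3 to 127 CPM. The part of pup sex in the upper-dose comparison and in the test between dose levels was not tested.

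The test between dose levels compared the signed log2 value of amitrole minus methimazole. It found 5 genes (0.102%) with a higher value at the upper doses and 1 gene (0.0204%) with a lower one. In each of these 6 genes the MMI8 level stood away from MMI16 more than Ami25 from Ami50. For Ptp4a2 and Cisd2, which were lower with amitrole, the higher value is a narrower gap at the upper doses. The higher and lower counts were 18 and 0 with DESeq2, 2 and 0 with no filter, 4 and 0 with the compared groups alone, and 11 and 1 without 1 shallow library. Ptp4a2, a protein tyrosine phosphatase, averaged 717 CPM in MMI8, 245 in MMI16, 197 in Ami25, 156 in Ami50 and 1355 in vehicle (difference of differences 1.28, adjusted p = 0.0218). Cisd2, an iron-sulfur protein, averaged 368, 176, 116 and 119 CPM in the same order (1.11). Traf3, a signalling adaptor (1.80), Tes (0.77) and the channel Vdac1 (0.55) went the same way, and Tep1, a telomerase-associated protein, went the other way (-1.68).

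**Figure D4:**
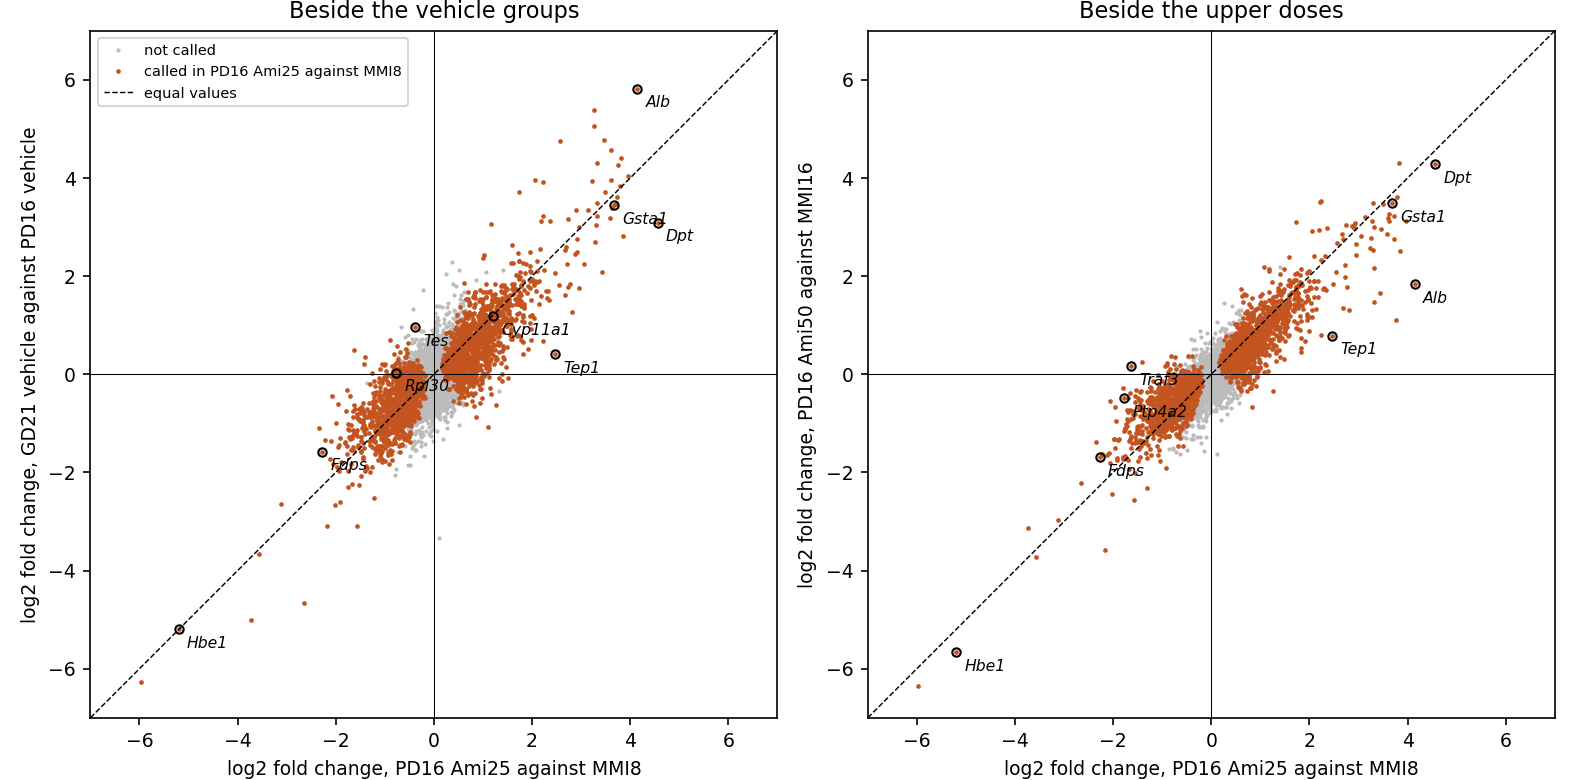
Log2 difference of PD16 Ami25 against MMI8 (horizontal) beside that of GD21 against PD16 vehicle (left) and of PD16 Ami50 against MMI16 (right), one point per gene for 4906 genes, with called genes in colour and the line of equal values dashed. Pearson's r is 0.81 in the left panel and 0.88 in the right.

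In the libraries labelled GD21 the same contrast gave almost no calls. Of 6236 genes tested between GD21 Ami25 and GD21 MMI8 (6 libraries each), 0 (0%) passed with edgeR and 1 with DESeq2, and 556 had an unadjusted p under 0.05, as 2676 of 4906 did at PD16. GD21 levels of the leading genes lay close together in both compounds: Fdps averaged 403 ± 110.2 CPM in Ami25 and 315 ± 57.3 CPM in MMI8, Gsta1 1602 ± 314 CPM and 1372 ± 265 CPM, and Cyp11a1 16798 ± 3633 CPM and 13977 ± 3010.5 CPM. The interaction was tested over all 83 libraries on the signed log2 value of Ami25 minus MMI8. This value was higher at PD16 than at GD21 for 831 of 6287 genes (13.2%) and lower for 746 (11.9%). Hbz (-7.92), Hbe1 (-6.73), Akr1c3 (-4.02) and Crabp1 (-3.99) were at the lower end. A lower signed value does not mean a smaller gap between the compounds. The upper end held liver and muscle genes carried by single libraries. Fabp1 (8.73) was at 88.0 CPM in PD16 Ami25 replicate 33 and 212 CPM in GD21 MMI8 replicate 45, and at most 2.22 and 7.21 CPM in the other libraries of those groups. Ckm (8.47) was at 256 CPM in PD16 Ami25 replicate 80, against at most 5.14 CPM in the others. Without these 3 libraries the values were 0.39 (adjusted p = 0.853) and 3.88 (adjusted p = 0.31), whereas Hbe1 was -6.62 and still passed.

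The vehicle groups of the 2 labelled stages differed in the same direction for many of these genes. GD21 vehicle was higher than PD16 vehicle for 1335 of 6287 genes (21.2%) and lower for 1436 (22.8%), again without a library in common with the compound comparison. Among the 4906 genes tested in both, 765 were higher in both, 64.3% of those higher in Ami25 and 71.4% of those higher in GD21 vehicle, and 832 were lower in both (70.5% and 64.5%). Of the genes called between compounds 91.1% had the same sign in the vehicle difference, r over genes was 0.81, and 10 genes were called in opposite directions, among them Mfsd10, Pank1, Nab2, Aplp2, Zfp36l1, Tes, Add1, Dpp3 and Ifitm2. The vehicle difference was -1.58 for Fdps, -1.49 for Mcm4, 3.45 for Gsta1, 1.18 for Cyp11a1, -5.20 for Hbe1 and 0.03 for Rpl30. By list, 16 of 22 cholesterol synthesis genes, 36 of 43 replication and 33 of 40 mitosis genes were lower in GD21 vehicle, and 9 of 40 matrix genes were higher and 8 lower.

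A contrast chosen after these values were seen set the compound difference against the vehicle difference. It was above it for 64 of 6287 genes (1.02%) and below it for 31 (0.493%), and the split was 40 and 49 with DESeq2 size factors. Among the genes above it were Tep1 (2.06), Txnip (1.53), Grb14 (1.88), Abcc3 (1.58) and Pank1 (1.73). Abcc3, an export pump for conjugates, averaged 24.4 CPM in Ami25, 10.7 in MMI8, 44.8 in PD16 vehicle and 30.3 in GD21 vehicle. Below it were Serpina11 (81.5 CPM in Ami25, 25.4 in MMI8, 8.49 in PD16 vehicle and 103 in GD21 vehicle), the asialoglycoprotein receptor Asgr1 (-1.90), Traf3 (-2.14) and Dusp10 (-1.78). Summed liver markers ran from 189 to 23316 CPM (median 1121) in GD21 vehicle and from 107 to 442 CPM in PD16 vehicle. Between these vehicle groups 13 of 14 tested liver markers were higher in GD21. The part of liver transcripts in the values of this contrast was not tested. No ribosomal protein gene passed in this contrast, although the median of the 75 was -0.44.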

How the data were processed

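RNA of 83 libraries labelled rat testis was counted by BRB-seq, and 21 of them (11 PD16 Ami25, 10 PD16 MMI8) are compared. Alignment used BWA 0.7.4.4 and the rn6 build, per the submitters' processing notes. Which tool and annotation gave the counts, whether strand was used and how barcodes were collapsed is not given in the sources used here. The authors deposited 1 table of raw counts for 17483 gene symbols, and 0 of its sample columns were left unmapped. CPM were computed from the total count of each library, and lowest, median, highest, mean and SD are over libraries.

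Counts were fitted with edgeR 4.0.16 in R 4.3.3: filterByExpr by group (minimum count 10), TMM factors, robust quasi-likelihood fit of all 53 PD16 libraries in 5 groups (of 30 GD21 libraries, or of 83 in 10 groups, for the other comparisons), and F tests with Benjamini-Hochberg adjustment over all genes tested, called under 0.05. The SE of a log2 difference is its size over the square root of F. The procedure was tested on simulated data. Alternatives were DESeq2 1.42.0, its size factors, other filters, the compared groups alone, a term for the library number series, each series alone, and libraries left out. Globin shares were tested by 2-sided permutation of libraries with 100000 resamples. Named genes are the 12 largest called differences each way among genes of at least 20 CPM in the higher group, up to 4 called genes per list by size at that level, and a set list of anchor genes; other genes are list members given with their fitted value. The comparison, the 39 gene lists and the marker lists were chosen with earlier results of these data known, so their directions are not independent evidence. Promoters came from RefSeq (GRCr8), a later build than rn6, and no position is carried between them. Values of some list members are not reported here.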

Additional observations from a re-analysis of the deposited data

Results flagged for a closer look

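Among named genes and the globin shares, 171 sets of 10 MMI8 values were examined. In 16 the library at one end stood apart from the other 9 by Dixon's criterion. Chance meets it in about 1 in 20 sets only where values are normally distributed. The CPM were not transformed, some are a few counts and the genes share libraries, so the 16 cannot be set against that rate. The Ami25 group, with 11 libraries, was not examined in this way. Replicate 63 stood apart for Afp (33.3 CPM), Mcm4 (223 CPM), Sod3 (26.6 CPM), Tes (482 CPM) and Vnn3 (26.6 CPM), and it had the lowest total count of its group. Replicate 25 stood apart for Gata2 (4.39 CPM), Idi1 (661 CPM), Inha (367 CPM) and RatNP-3b (17.6 CPM). Replicate 7 did so for Col1a1 (753 CPM) and Igf2 (297 CPM). The others were replicate 28 for Cyp11b2 (1910 CPM), replicate 64 for Akr1c3 (438 CPM), replicate 66 for Pnmt (59.3 CPM), replicate 26 for Serpina11 (68.7 CPM) and replicate 27 for Uts2 (8.16 CPM).

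The difference between the compounds itself differed between upper and lower doses for 6 genes in the test of that difference: Ptp4a2 (1.28), Cisd2 (1.11), Tes (0.77), Vdac1 (0.546), Traf3 (1.80) and Tep1 (-1.68), as log2 values at the upper minus the lower doses. Between the labelled stages it differed for 1577 genes. The named ones below MMI8 at PD16 were Hbz (-7.92), Hbe1 (-6.73), Akr1c3 (-4.02), Crabp1 (-3.99) and Hbg1 (-3.40). Those above it were Fabp1 (8.73), Ckm (8.47), Apoa2 (8.40), Acta1 (7.57) and Fga (7.32), genes of liver and muscle. In PD16 Ami25 they rest on single libraries: Fabp1, Apoa2 and Fga on replicate 33 (88.0, 150.2 and 174 CPM, with at most 9.24 CPM in any other), Ckm and Acta1 on replicate 80 (256 and 829 CPM, with at most 34.3 CPM in any other). GD21 MMI8 replicate 45 was the highest of its group for all 5. None of the 5 passed without these 3 libraries, where the values were 0.39 for Fabp1, 3.88 for Ckm, 2.34 for Apoa2, 3.12 for Acta1 and 1.00 for Fga, with adjusted p from 0.301 to 0.885. The 5 genes at the other end passed without them too, and 1417 genes were called in all. The 4 other genes of this set were too low at PD16 to be tested there.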

How the results depend on the processing

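The count of 2369 genes called between Ami25 and MMI8 was 2106 to 2698 over the other tools, filters and library choices, and 2277 to 2378 when single libraries were left out. Fitted within the library numbers 1 to 20, 21 to 40 and 41 up it was 653, 1352 and 1331, with fewer libraries in each fit. The embryonic globin share differed by -17.27 to -16.22 percentage points with single libraries left out and by -20.5 within numbers 1 to 20. The globin share differed by 5.15 to 5.81 points with single libraries left out, by 6.35 within numbers 1 to 20 and by 4.74 within numbers 41 up. The 6 genes whose compound difference varied with dose level were 18 with DESeq2, 2 with no filter and 12 without 1 shallow MMI16 library. GD21 Ami25 against MMI8 gave 0 genes, and 1 with DESeq2. The contrast against the vehicle difference gave 95 genes, 165 with DESeq2 and 19 with no filter. Of 160 called genes that are named, 147 kept their call in every alternative outside the fits within a number series and 68 in those too. Signs reversed within numbers 1 to 20 for Acta1 (-0.89) and Apoa1 (-0.54) and within numbers 21 to 40 for Calb2 (1.56); the cause was not tested. Leaving out libraries that stand apart, and the contrast against the vehicle difference, were chosen after seeing the data. No paired analysis was possible because the 2 groups share no library number. Depth limits the low genes: at these totals 1 count is worth several CPM in the shallowest libraries, and genes of a few CPM were mostly not tested.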
